A study of Mus musculus with 6 samples.

Results

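Genes for secreted BMP ligands, their extracellular antagonists and their receptors were followed by RNA-seq in cells sorted from the mouse subventricular zone. The members are the rows of the deposited table with the symbols Bmp2, Bmp4, Bmp6, Bmp7, Nog, Chrd, Bmpr1a, Bmpr1b, Bmpr2 and Bambi, 10 of 55487 rows in all. Every one of the 10 had a mean of at least 10 normalized reads and was among the 18227 rows tested. The subventricular zone is the adult neurogenic niche along the lateral ventricles, and the series concerns activator E2F transcription factors in its quiescent and activated neural stem cells.

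All mice carried a tamoxifen-inducible Cre under the Nestin promoter and a yellow fluorescent reporter in the Rosa26 locus (NestinCreERT2/R26;EYFP), on a C57BL/6;Sv/129;FVB/N background. The heterozygous group was E2F1(+/-);E2F3(F/+) and the knockout group E2F1(-/-);E2F3(F/F), so the controls had also lost 1 E2f1 allele and carried 1 floxed E2f3 allele. Mice were 6 to 10 weeks old at the start, received tamoxifen at 200 mg/kg per day for 5 days, and were sampled 10 days after the last dose. Each library pooled the sorted YFP-positive cells of several mice, at least 200000 cells, with 3 libraries (A, B and C) per genotype. Nestin is expressed in neural stem cells, and sorted cells include marked descendants and any other cell in which the driver was active.

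Bone morphogenetic proteins are dimeric ligands of the TGF-beta superfamily. They bring together type I receptors, such as the products of Bmpr1a and Bmpr1b, and the type II receptor BMPR2, which then phosphorylate SMAD1, SMAD5 and SMAD9. Noggin (Nog) and chordin (Chrd) bind the ligands outside the cell and keep them from their receptors, and BAMBI is a receptor-like membrane protein that lacks a kinase domain. In the adult subventricular zone BMP signalling is known to promote the glial fate and quiescence of stem cells, and ependymal noggin is known to favour neurogenesis.

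Between 19798675 and 25982361 reads per library were assigned to genes, and values below are reads divided by the authors' size factor for each library (normalized reads). E2f1 stood at 1152, 1388 and 1030 normalized reads in heterozygous A, B and C and at 375, 483 and 516 in knockout A, B and C (log2 difference -1.38 ± 0.22, limma adjusted p = 0.00559). E2f3 stood at 293, 205 and 253 against 324, 231 and 245, counted over the whole gene, so the E2f3 value does not check recombination. Summed markers of neuroblasts were 62390 to 105000 normalized reads in heterozygous and 8089 to 13070 in knockout libraries, with 10 of 10 genes lower. Those of activated stem cells and transit-amplifying cells were 31130 to 47490 against 10570 to 22870, with 4 of 8 genes lower. Both gene counts are at a limma adjusted p under 0.05, where 8.59% of all rows tested were lower. In bulk libraries fewer cells of a type and less RNA per cell cannot be told apart. Ependymal markers summed to 13070 to 14550 in heterozygous libraries and to 77970, 46560 and 18600 in knockout A, B and C. Endothelial markers summed to 4581 to 4726 against 27760, 10370 and 3320, and quiescent stem cell and astrocyte markers to 301700 to 456000 against 399800 to 703100. Heterozygous A alone held a high level of choroid plexus markers (48140 normalized reads, against 765 and 792 in heterozygous B and C), of which the transthyretin gene Ttr made up 44005. The choroid plexus markers Kcne2, Kl and Prlr were at 0 in at least 1 library.

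Of the 10 genes 2 rose in knockout cells, the ligand Bmp6 and the antagonist Nog, and 0 fell (limma on log2(value + 1), two-sided, Benjamini-Hochberg adjusted p under 0.05 over all 18227 rows). Among all rows tested 15.8% changed, 7.23% higher and 8.59% lower. With edgeR and with DESeq2 the count was also 2 higher and 0 lower, where 7.69% and 11.3% of all rows with an adjusted p were higher and 8.14% and 10.4% lower. At an unadjusted limma p under 0.05 it was 3 higher and 0 lower, against 16.9% and 16.5% of all rows tested. The median log2 difference of the 10 genes was 0.58, against 0.05 over all rows tested. In 3 of the 10, Bmp6, Nog and Chrd, every knockout library lay above every heterozygous library, against 18.5% of all rows tested.

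Among the ligands, Bmp6 (ENSMUSG00000039004, GRCm38 chromosome 13, 38345107 to 38500302, plus strand) changed most. Heterozygous A, B and C held 649, 552 and 371 normalized reads of Bmp6, and knockout A, B and C held 2160, 2008 and 1739. The lowest knockout library was 2.68-fold above the highest heterozygous library. The mean went from 524 ± 141 to 1969 ± 213 (SD, n = 3 per genotype). The log2 difference was 1.94 ± 0.24 (SE, 95% interval 1.40 to 2.48, limma adjusted p = 0.00196) or 3.84-fold. Here and below, a fold given with an adjusted p comes from the difference of mean log2(value + 1), not from the ratio of the means shown. By p-value Bmp6 was number 7 of the 9524 rows with a positive difference, and by size number 206 of the 1318 that rose. In the authors' deposited table its log2 fold change was 1.91 (adjusted p = 1.77e-10). A stretch of 224 of the 3900 exon bases of Bmp6 is shared with exons of Txndc5 on the opposite strand, and whether counting used strand is not given in the sources used here. Txndc5 held 4454 to 4767 normalized reads in heterozygous libraries and 5266, 7646 and 9817 in knockout A, B and C (log2 difference 0.66 ± 0.23, adjusted p = 0.0785 in limma and 0.0351 in DESeq2). Heterozygous A had the highest Bmp6 and the highest Txndc5 of its genotype, and knockout A the highest Bmp6 and the lowest Txndc5. The part of Txndc5 reads in the Bmp6 values was not tested. Bmp6 also lies 8.36 Mb from E2f3, the floxed gene. A local effect of the targeted allele, or of the strain DNA around it, was not tested. Among 133 other tested genes within 10 Mb of E2f3, 13 rose (9.77%) and 15 fell, and among 14 within 1 Mb of Bmp6, 1 rose and 1 fell. Over all rows tested 7.23% rose and 8.59% fell. The median log2 difference was 0.41 for the 133 genes and 0.28 for the 14, against 0.05 over all rows tested.

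The other ligands did not pass the test. Bmp7 (ENSMUSG00000008999), which encodes a ligand closely related to BMP6, was at 245, 268 and 517 normalized reads in heterozygous A, B and C and at 393, 463 and 535 in the knockout libraries. Its groups overlapped, with heterozygous C above knockout A and B, and the log2 difference was 0.50 ± 0.32 (95% interval -0.21 to 1.22, adjusted p = 0.293). Bmp4 (ENSMUSG00000021835), a ligand used widely in neural patterning, had 59.5, 49.0 and 76.0 normalized reads against 64.7, 72.1 and 55.7, and the log2 difference was 0.08 ± 0.40 (95% interval -0.83 to 0.98, adjusted p = 0.914). The interval leaves room for a change of Bmp4 near 2-fold in either direction. Bmp2 (ENSMUSG00000027358), the close relative of Bmp4, had the fewest reads, 5, 11 and 19 recovered reads in heterozygous libraries and 20, 14 and 18 in knockout libraries. At that depth its log2 difference of 0.69 ± 0.71 had a 95% interval from -0.91 to 2.28 (adjusted p = 0.527).

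**Figure D1:**
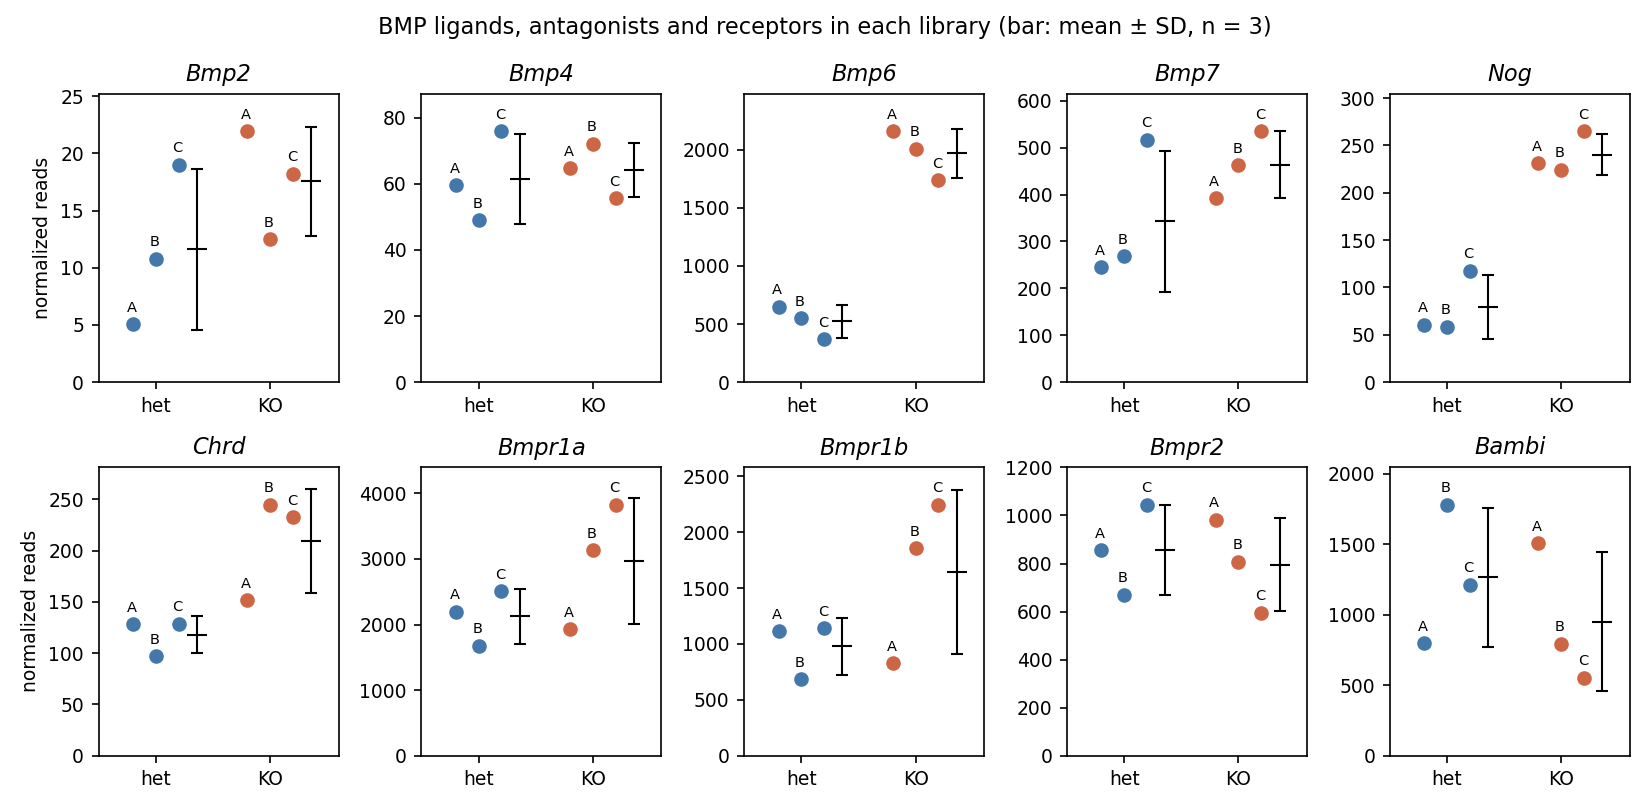
Normalized reads (vertical axes, from 0) of the 10 genes in heterozygous (het, blue) and knockout (KO, orange) libraries, 1 point per library labelled A, B or C, with a bar for the mean ± SD (n = 3). For Bmp6 (371 to 649 against 1739 to 2160), Nog (58.8 to 118 against 224 to 265) and Chrd (97.0 to 129 against 151 to 245) all knockout points lie above all heterozygous points.

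Both antagonist genes were higher in each knockout library, and Nog passed the test. Nog (ENSMUSG00000048616, chromosome 11, 89300638 to 89302332, minus strand), a gene with a single exon, was at 60.5, 58.8 and 118 normalized reads in heterozygous A, B and C. In knockout A, B and C it was at 231, 224 and 265. The knockout libraries lay within 1.18-fold of each other, and the lowest was 1.90-fold above heterozygous C, the highest control. The log2 difference was 1.66 ± 0.37 (95% interval 0.84 to 2.49, limma adjusted p = 0.0188) or 3.17-fold. The means were 79.1 ± 33.7 in heterozygous and 240 ± 21.8 in knockout libraries. The authors' deposited table gave 1.603 (adjusted p = 0.000435). The adjusted p of Nog was 0.0725 when heterozygous A was left out, 0.0769 for heterozygous B and 0.0764 for knockout B, at log2 differences of 1.51, 1.49 and 1.71.

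Chrd (ENSMUSG00000006958, chromosome 16, 20733127 to 20742384, plus strand) had 128, 97.0 and 129 normalized reads in heterozygous libraries and 151, 245 and 233 in knockout A, B and C. Knockout A was 1.17-fold above the highest heterozygous library, and B and C were well apart from the controls. The log2 difference was 0.80 ± 0.33 (95% interval 0.07 to 1.54), and the adjusted p of 0.120 missed the threshold.

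Promoter sequences were read from RefSeq on GRCm38.p6, which held 6 of the 9 genes looked up (Bambi was not used here), as windows of 250 bases before to 50 after a start site. For Chrd and Bmp4 the RefSeq start equals the start of the GENCODE M21 gene and no annotated exon lies in the 250 bases before it. These sequences are shown for an antagonist whose libraries separated by genotype and a ligand whose libraries overlapped, 5′ to 3′ on the strand of the gene, with matches to the GC element GGCGCC of SMAD1 and SMAD5 in capitals. They lie at chr16:20732877-20733126 (plus strand) and chr14:46390670-46390919 (minus strand).
Chrd: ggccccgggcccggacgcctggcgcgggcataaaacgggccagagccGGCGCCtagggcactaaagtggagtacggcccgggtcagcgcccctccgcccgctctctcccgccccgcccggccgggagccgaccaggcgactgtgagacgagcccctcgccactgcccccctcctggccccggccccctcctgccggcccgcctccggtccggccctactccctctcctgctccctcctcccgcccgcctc
Bmp4: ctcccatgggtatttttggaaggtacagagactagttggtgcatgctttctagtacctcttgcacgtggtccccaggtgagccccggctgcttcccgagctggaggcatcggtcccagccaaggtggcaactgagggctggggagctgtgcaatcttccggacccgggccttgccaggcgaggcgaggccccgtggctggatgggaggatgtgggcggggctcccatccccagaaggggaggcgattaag
The Chrd window held 1 match, starting 203 bases before the start site, and the Bmp4 window held 0. Of 32851 promoters of the same length 11.9% held GGCGCC on either strand, and the median GC content of their 250 bases before the start was 52.4%, against 78.0% for Chrd and 63.2% for Bmp4. The windows of Bmpr1a and Bmpr2 (78.8% and 64.0% GC) also held 1 match each, while those of Bmp6 and Bmpr1b held 0. None of the 6 genes had TTTCGCGC, TTTGGCGC, TTTCCCGC or TTTGCCGC, letters of E2F sites, which stood in 2.26% of all promoters on either strand. GGCGCC and TTTGGCGC can share bases. The RefSeq starts of these other genes lay inside the GENCODE gene, 609 bases from its start for Bmp6, 795 for Bmpr1a, 879 for Bmpr2 and 187161 to 238005 for the 3 starts of Bmpr1b.

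No receptor gene passed the test. Bmpr1a (ENSMUSG00000021796), the more widely expressed type I receptor, was at 2196, 1678 and 2509 normalized reads in heterozygous A, B and C and at 1931, 3132 and 3828 in knockout A, B and C. Bmpr1b (ENSMUSG00000052430), the other type I receptor, was at 1113, 683 and 1140 against 829, 1856 and 2247. In both genes knockout B and C lay above all heterozygous libraries and knockout A lay among them. The log2 differences were 0.44 ± 0.27 (95% interval -0.17 to 1.05, adjusted p = 0.280) for Bmpr1a and 0.66 ± 0.37 (-0.16 to 1.49, adjusted p = 0.232) for Bmpr1b. Without knockout A the Bmpr1b value was 1.10 with an adjusted p of 0.0318, so 1 library decided that call.

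Bmpr2 (ENSMUSG00000067336), the type II receptor, was at 856, 670 and 1045 normalized reads in heterozygous and 983, 808 and 596 in knockout libraries. The log2 difference was -0.11 ± 0.26 (95% interval -0.69 to 0.46, adjusted p = 0.787). Bambi (ENSMUSG00000024232), the pseudoreceptor, ranged as widely within a genotype as between them, with 798, 1780 and 1213 normalized reads against 1505, 794 and 552. Its log2 difference was -0.46 ± 0.39 (95% interval -1.34 to 0.41, adjusted p = 0.435).

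To compare genes with each other, normalized reads were divided by exon length in kilobases. That length joins all annotated exons of a gene over its isoforms, 17983 bases for Bmpr2 and 1695 for Nog. Which isoforms were expressed was not examined, so the order of genes per kb depends on this choice of length. In heterozygous libraries the highest was Bmpr1a (335 ± 66.1 per kb), followed by Bambi (249.1 ± 97.2), Bmpr1b (164 ± 43.0), Bmp6 (134 ± 36.2) and Bmp7 (85.5 ± 37.4), and each neighbouring pair among these 5 overlapped between libraries. Bmpr2 (47.7 ± 10.4) and Nog (46.7 ± 19.9) overlapped with each other, and Bmp4 (27.4 ± 6.05), Chrd (18.9 ± 2.91) and Bmp2 (3.26 ± 1.97) followed without overlap. In knockout libraries Bmp6 stood first (505 ± 54.6 per kb), level with Bmpr1a (467 ± 151) within their spread. Nog moved up to 142 ± 12.8 per kb, overlapping Bambi (187 ± 97.6) above it and Bmp7 (115 ± 17.7) below it, and Bmp2 (4.93 ± 1.34) remained last.

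Among Bmp2, Bmp4, Bmp6 and Bmp7, Bmp6 had the highest level per kb in all libraries but heterozygous C. Its part of the summed level per kb of the 4 ligands was 65.2%, 60.7% and 36.2% in heterozygous A, B and C and 80.7%, 77.4% and 73.2% in knockout A, B and C. In heterozygous C the larger part was Bmp7 (48.9%). The summed ligands were at 233 to 263 per kb in heterozygous and 609 to 687 per kb in knockout libraries, and Nog plus Chrd at 50.2 to 90.2 and 161 to 194 per kb. Ligands per antagonist were 4.54, 4.64 and 2.91 in heterozygous and 4.27, 3.88 and 3.15 in knockout libraries, so this ratio of transcript levels overlapped between genotypes although its 2 parts did not. These sums describe chosen genes and were not tested.

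The members differed in how they varied among libraries of one genotype. From lowest to highest, Bmpr1a and Bmpr1b had the order B, A, C among heterozygous and A, B, C among knockout libraries, the order of the summed quiescent stem cell and astrocyte markers in both genotypes. Bmpr1b spread 2.71-fold and Bmpr1a 1.98-fold among knockout libraries, and those markers 1.76-fold. Bambi and Bmpr2 had the reverse order among knockout libraries, C, B, A. Ependymal, endothelial, mural, microglial, choroid plexus and fibroblast markers had that order there too. The heterozygous order B, A, C was also that of Bmp4, Nog, Chrd and Bmpr2. In knockout libraries A, B, C was also the order of Bmp7 and of the activated stem cell sum. With 3 libraries such orders have few possibilities, and they were not tested.

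Bmp6 shared the order C, B, A among knockout libraries and spread 1.24-fold there, against 4.19-fold for the ependymal and 8.36-fold for the endothelial sum. Oligodendrocyte lineage markers (47670 to 69270 against 74650 to 92790 normalized reads) and striatal neuron markers (1539 to 1731 against 2898 to 3305) were also higher in each knockout library, and spread 1.24-fold and 1.14-fold among them. Most of the striatal sum was Ppp1r1b (1082 to 1419 against 2333 to 2693). Drd2 was lower in each knockout library (37.0 to 107 against 3.56 to 12.1). In knockout C the endothelial sum was 0.712 of the heterozygous mean and the ependymal sum 1.37-fold of it, and Bmp6 was at 3.32-fold and Nog at 3.35-fold their heterozygous means. In knockout A the quiescent and astrocyte sum was 1.07-fold of the heterozygous mean, with Bmp6 at 4.12-fold and Nog at 2.93-fold. Other libraries went differently. In knockout A the ependymal sum was 5.73-fold, the endothelial sum 5.95-fold and the mural sum 3.02-fold of the heterozygous mean. The quiescent and astrocyte sum was 1.70-fold of it in knockout B and 1.89-fold in knockout C. Among the listed markers 8 of 10 ependymal genes, 0 of 8 endothelial genes and 0 of 8 oligodendrocyte lineage genes rose (at an adjusted p under 0.05). So did 1 of 10 quiescent and astrocyte genes and 2 of 6 tested striatal genes, while 1 striatal gene fell. The part of these cell types, and of the lower neuroblast and activated stem cell levels, in the values of Bmp6 and Nog was not tested. Choroid plexus markers stood apart in heterozygous A. Without that library the limma log2 difference of Bmp6 was 2.11 (adjusted p = 0.0138). That of Nog was 1.51 (adjusted p = 0.0725), above the threshold.

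**Figure D2:**
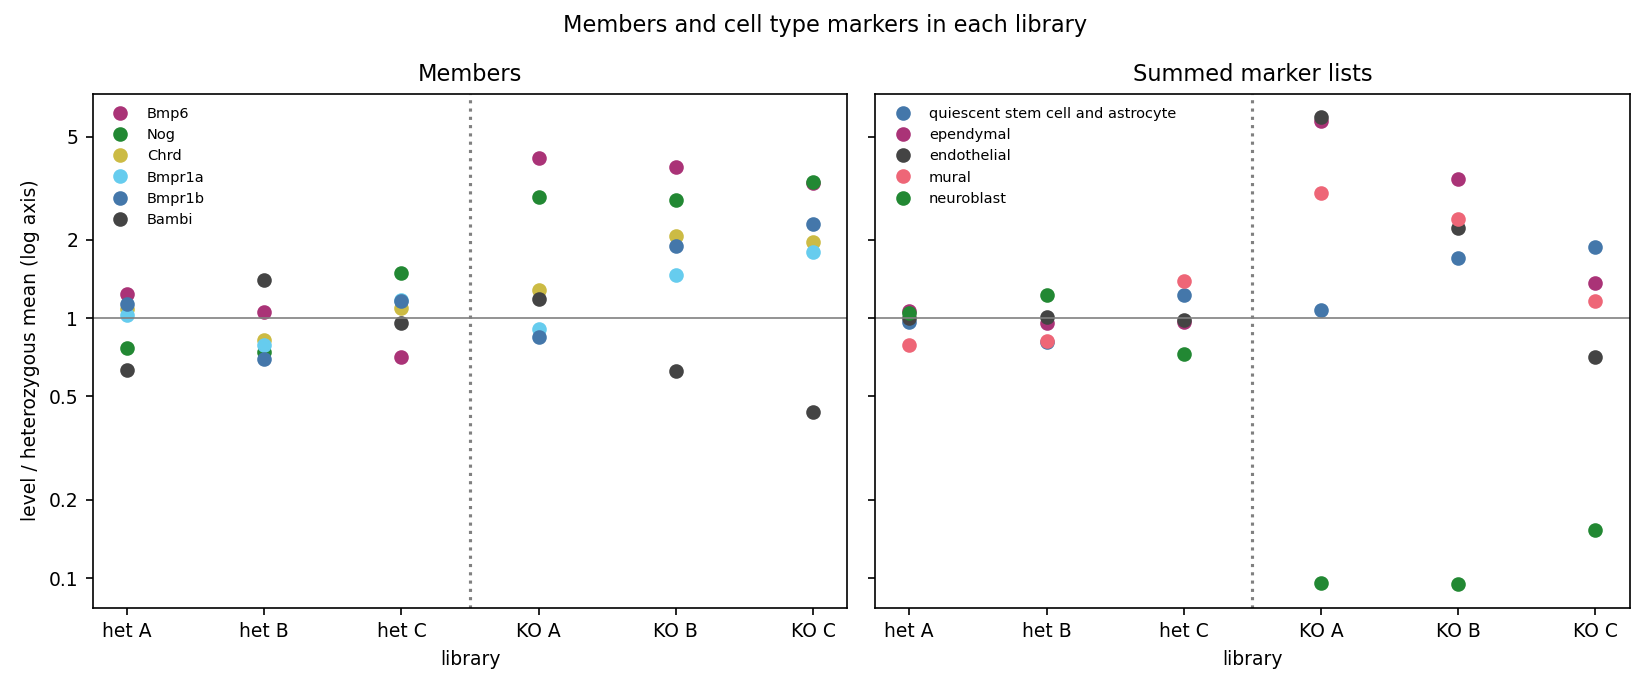
Level in each library divided by the mean of the heterozygous libraries (log axis, grey line at 1), for 6 members at left and 5 summed marker lists at right, with 1 point per library. In knockout C, Bmp6 is at 3.32, Nog at 3.35, the endothelial sum at 0.712 and the ependymal sum at 1.37, and Bambi goes from 1.19 in knockout A to 0.437 in knockout C. In knockout A, Bmp6 is at 4.12, Nog at 2.93, the endothelial sum at 5.95 and the ependymal sum at 5.73.

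The rest of the pathway was described with a list of 74 other genes, of which 60 were tested. Of these 10 rose and 5 fell, where 7.23% of all rows tested rose and 8.59% fell. The median log2 difference was 0.45, against 0.05 over all rows tested. By class the median was 0.76 for other ligands, 0.25 for extracellular modulators, 0.84 for receptors and coreceptors, -0.00 for SMADs and regulators and 0.81 for response genes. Among 12 other ligands, 6 were tested and 0 passed limma, edgeR or DESeq2, with 1 at an unadjusted limma p under 0.05. That was Bmp5, with 4.04, 0 and 19.0 normalized reads in heterozygous and 23.0, 29.4 and 26.3 in knockout libraries (adjusted p = 0.124). Gdf11, the most abundant of them, had a log2 difference of 0.19 ± 0.28.

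Among 17 tested extracellular modulators 1 rose and 2 fell, against 7.23% and 8.59% of all rows tested. Crim1, which encodes a membrane-anchored protein with chordin-like repeats, went from 321 ± 68.1 to 609 ± 80.4 normalized reads (1.92-fold, adjusted p = 0.0358). Smoc1, whose product is a matricellular modulator of BMP signalling, fell from 1177 ± 352 to 412 ± 140 (2.89-fold, adjusted p = 0.0148), with 1577, 912 and 1041 against 267, 424 and 546. Tll1, a tolloid-like protease of the family that cleaves chordin, was at 94.8, 44.1 and 42.0 against 0, 0 and 27.3. Its limma log2 difference was -4.23 (adjusted p = 0.0476), and with libraries at 0 this size depends on the fit, at -2.70 in edgeR, -2.73 in DESeq2, -2.72 with a pseudocount of 5, -4.89 with 0.5 and -5.83 without knockout C. Neither edgeR (adjusted p = 0.192) nor DESeq2 (0.417) called it.

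Coreceptors moved in both directions. Lrp2, which encodes megalin, an endocytic receptor that binds BMP4, rose from 20.2, 24.5 and 26.0 to 185, 123 and 91.1 normalized reads (5.26-fold, adjusted p = 0.0101). Tgfbr3, which encodes betaglycan, rose 3.38-fold (adjusted p = 0.0298), from 77.4 to 160 up to 190 to 512. The repulsive guidance molecule genes, whose products are BMP coreceptors, went opposite ways. Rgma rose from 643 ± 125 to 1502 ± 366 normalized reads (2.32-fold, adjusted p = 0.0135) and Rgmb fell from 2213 ± 490 to 1263 ± 156 (1.73-fold, adjusted p = 0.0379). Acvr2b, a type II receptor shared by activins and BMPs, fell from 1868 ± 365 to 904 ± 103 (2.05-fold, adjusted p = 0.0135), with every knockout library below every heterozygous one. Of 14 tested receptors and coreceptors 3 rose and 2 fell, against 7.23% and 8.59% of all rows tested. The type I receptor gene Acvr1 had a log2 difference of -0.16 ± 0.19.

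Among 16 SMAD and regulator genes 4 rose and 1 fell, against 7.23% and 8.59% of all rows tested. The inhibitory SMAD gene Smad6 rose from 75.6 ± 25.0 to 189 ± 39.7 normalized reads (2.53-fold, adjusted p = 0.0424), and Smad3, which acts in the TGF-beta and activin branch, rose 2.09-fold (adjusted p = 0.0442). Smad6 and Smad3 were not called by edgeR (adjusted p = 0.0504 and 0.0546). Zfp423, a zinc finger cofactor of BMP-activated SMADs, rose from 608 ± 194 to 1573 ± 218 (2.65-fold, adjusted p = 0.00928), and the SMAD corepressor gene Ski rose 1.51-fold (adjusted p = 0.0462). Map3k7, which encodes the kinase TAK1, fell 1.54-fold (adjusted p = 0.0489). The signal-transducing genes Smad1, Smad5 and Smad4 differed by -0.34, 0.03 and -0.35 on the log2 scale (adjusted p between 0.289 and 0.925). Smad9, the third BMP-activated SMAD gene, was at 13.1, 0 and 7 normalized reads against 45, 57.9 and 29.4. Its log2 difference of 3.17 ± 0.99 missed the threshold in limma (adjusted p = 0.0565) and edgeR (0.0928) and passed it in DESeq2 (0.0209).

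Of 7 tested BMP response genes 2 rose and 0 fell, with 2 and 0 in edgeR, 5 and 0 in DESeq2, and 5 and 0 at an unadjusted limma p under 0.05. Over all rows 7.23% were higher in limma, 7.69% in edgeR, 11.3% in DESeq2 and 16.9% at the unadjusted limma p. Id3, a helix-loop-helix inhibitor of differentiation, rose from 3040, 3852 and 6290 to 11830, 9189 and 11170 normalized reads (2.54-fold, adjusted p = 0.0130). Hey1, a transcriptional repressor that also answers to Notch, rose from 808 ± 74.3 to 1885 ± 363 (2.31-fold, adjusted p = 0.00680). Id1 stood at 828, 756 and 1597 against 3464, 1590 and 1943, and its groups overlapped (adjusted p = 0.0549 in limma, 0.0679 in edgeR and 0.0117 in DESeq2). Id4, the most abundant of the list, had a log2 difference of -0.09 ± 0.22 (adjusted p = 0.804).

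How far these pathway calls rested on single libraries varied between genes. Hey1 passed in all 6 fits that left out 1 library, and Lrp2 in all but the fit without knockout B. Zfp423 and Acvr2b were lost without heterozygous B and without knockout B, and Id3 without heterozygous A and without heterozygous B. Rgma and Smoc1 were lost in 3 of the 6 fits, the same 3 as Nog. Tgfbr3 and Rgmb were lost in those and without knockout A. Crim1, Smad3, Smad6 and Tll1 passed only in the fit without knockout C, and Ski and Map3k7 in 0 of the 6.

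**Figure D3:**
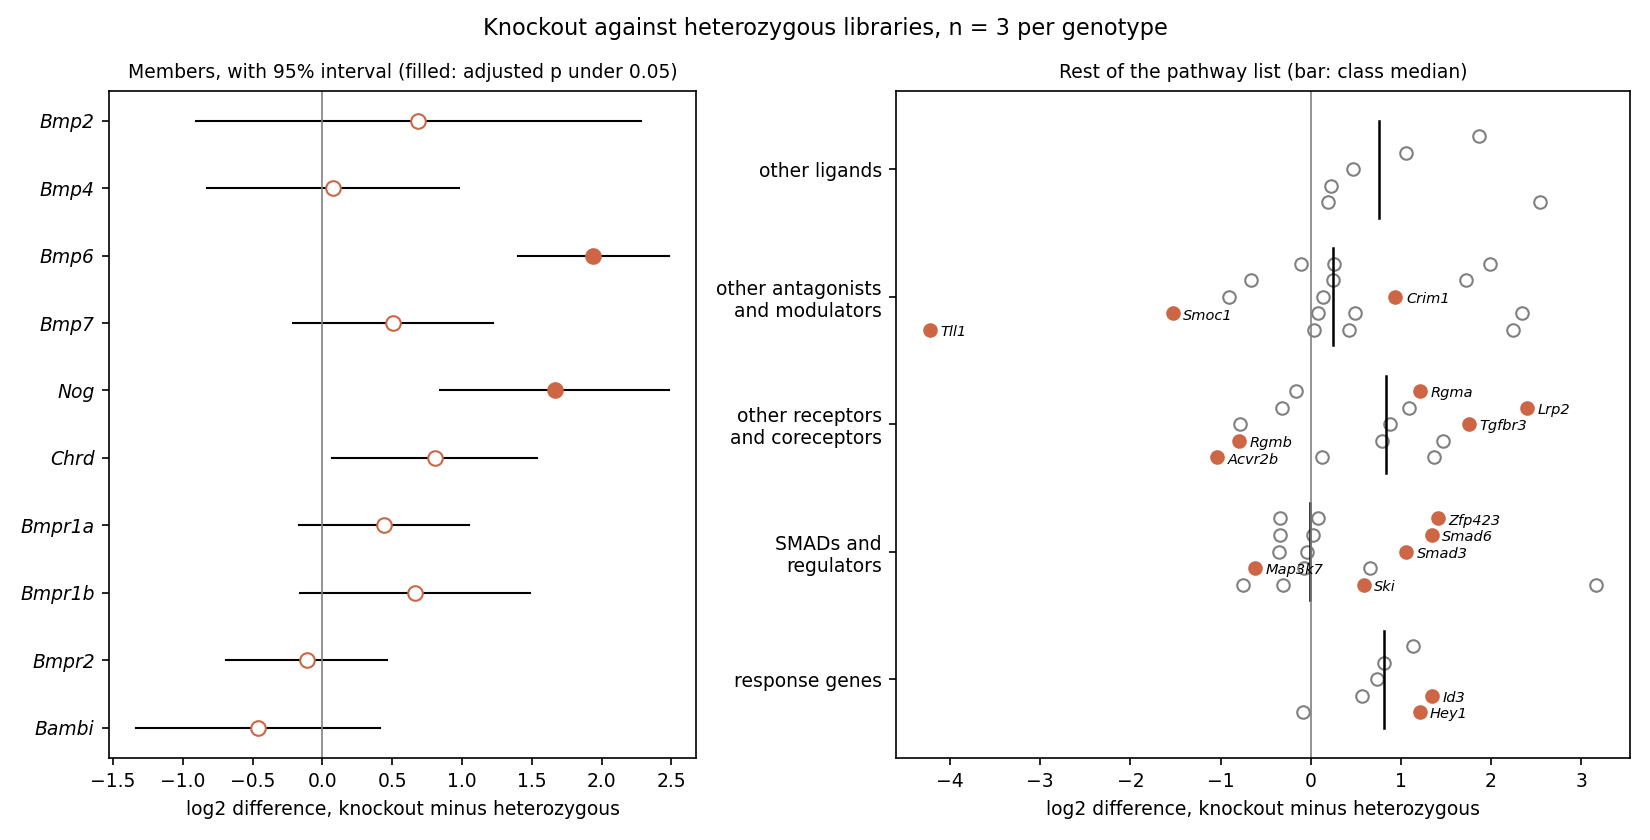
Log2 difference (knockout minus heterozygous) of the 10 members with 95% intervals at left, and of the 60 other tested pathway genes by class at right, where black bars are class medians and filled points passed an adjusted p under 0.05. Bmp6 (1.94) and Nog (1.66) are the filled members, and filled genes of the other classes lie on both sides of 0, from Tll1 (-4.23 here and -2.70 in edgeR) to Lrp2 (2.40).

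Among the tested genes most like Bmp6 over the 6 libraries, by Pearson correlation of log2(value + 1) among 12747 named genes with a mean of at least 50, were Shroom3, Ankrd45, Ccdc74a and Sned1 (r of 0.99 or above for each). Shroom3, whose product shapes the apical actin cytoskeleton, went from 176, 129 and 94.95 to 473, 476 and 380 normalized reads. The genes most like Nog were Rab13, Gpx8, Nat8l, Anxa7 and Metrn, and Metrn (meteorin) went from 1155, 1216 and 1648 to 2754, 2670 and 2738. Rab13, with the highest r, went only from 475, 487 and 536 to 611, 599 and 620 and was not called (limma adjusted p = 0.336). With 6 libraries, a difference between genotypes in both genes can by itself give a high r. Of the 12747 genes, 102 had an r of 0.95 or above with Bmp6 and 283 with Nog. These correlations are descriptions and share the same libraries and size factors.

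Bmp6 and Nog differed in how far their calls depended on single libraries. Bmp6 passed in each of the 6 fits that left out 1 library, at log2 differences between 1.71 and 2.11 (adjusted p between 0.000442 and 0.0216). Nog passed in 3 of the 6, at log2 differences between 1.49 and 1.99 (adjusted p between 0.0145 and 0.0769). Each such fit tests 3 libraries against 2, and the share of all rows called also moved with the library left out.

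**Figure D4:**
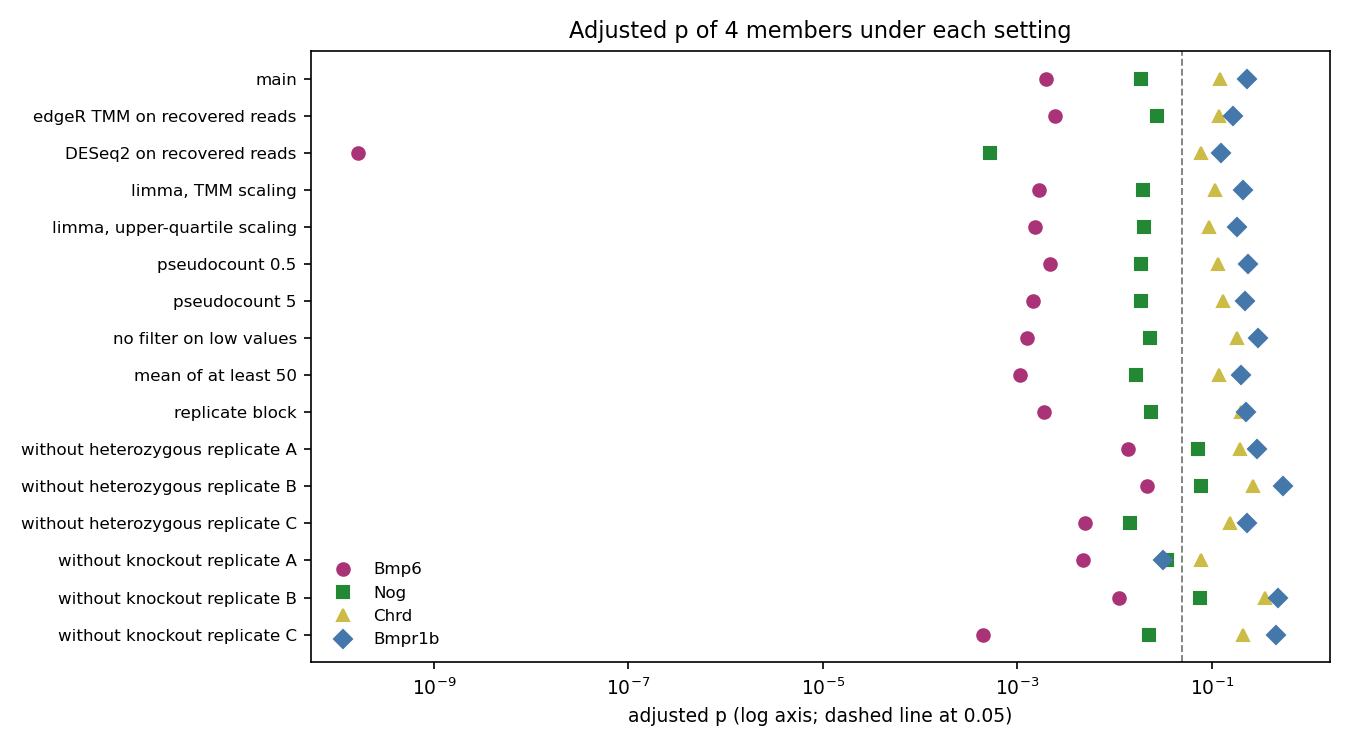
Adjusted p (log axis, dashed line at 0.05) of Bmp6, Nog, Chrd and Bmpr1b in the main limma fit and in each alternative at an unchanged threshold, 1 row per setting. All Bmp6 points lie left of the line, Nog crosses it when knockout B or either of heterozygous A and B is left out, and Bmpr1b crosses it without knockout A.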

How the data were processed

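The authors deposited 1 table with a normalized signal per gene and library, read counts divided by 1 size factor per library. Per the submitters' processing notes, HISAT2, featureCounts, Subread and DESeq2 were used on GRCm38, and versions and strand settings are not given in the sources used here. The authors' log2 fold change, p-value and adjusted p-value, and the score columns deposited beside them (standard error, Wald statistic and test weight), come from the same table, per the file headers. Dividing each column by the value of 1 read gave whole reads for 100% of entries (tolerance 0.001 reads).

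limma 3.58.1 with a mean-variance trend (R 4.3.3) compared genotypes on log2(value + 1), with no other term. It covered the 18227 of 55487 rows whose mean reached 10, at a Benjamini-Hochberg adjusted p of 0.05 over them all. The size of a log2 difference of low genes depends on the pseudocount, most where a library is at 0. edgeR 4.0.16 and DESeq2 1.42.0 on recovered reads, other scalings, pseudocounts, filters, a replicate block and leaving out each library were alternatives. Exon lengths and coordinates came from GENCODE M21 (GRCm38), and figures from matplotlib 3.10.9. Each library is a pool of mice per the labels, which do not say whether the pools of a genotype were prepared separately, so p-values measure only the spread between these libraries.

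The members, lists and naming rule (all members, every pathway gene called, in the class with none called the smallest p and the highest mean, targeted genes, and the 5 genes most like each called member, of which 1 is not reported here) were chosen with earlier results of these data known. Acvr1, Smad1, Smad4, Smad5, Smad9, Id1, Id4 and Txndc5 and the windows around E2f3 and Bmp6 were added after their values were seen.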

Additional observations from a re-analysis of the deposited data

How the results depend on the processing

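The counts of members were 2 higher and 0 lower in each alternative that kept all libraries, except at an adjusted p threshold of 0.01, where 1 member (Bmp6) was higher. At that threshold 115 genes were higher and 503 lower over all rows tested, and 2 pathway genes were higher and 0 lower. DESeq2 called 2318 genes higher and 2134 lower, and 18 pathway genes higher. The count of pathway genes that fell was 3 with upper-quartile scaling and 2 without the filter on low values, where Rgmb, Ski, Map3k7, Smad3, Smad6 and Tll1 were not called. With the replicate block, a term for the letters A, B and C, 3 pathway genes fell and 8 rose, 2 members rose, and 1105 genes rose and 1205 fell over all rows. Deviations from the group means correlated at -0.07, 0.02 and -0.10 for the same letter, and between -0.09 and 0.16 for different letters. With 3 libraries per genotype these values cannot decide whether a letter marks a shared preparation. A call lost with this term has the same log2 difference as in the main fit. Leaving out 1 library gave 1 to 3 members higher and 0 lower. It gave 2 to 15 pathway genes higher and 0 to 7 lower, and 111 to 1964 genes higher and 470 to 2057 lower over all rows. The lowest counts came when knockout B or either of heterozygous A and B was left out, and without knockout C the counts of all genes rose. Upper-quartile scaling (1581 higher, 1463 lower), like DESeq2, reversed the balance of all calls. No named gene with a call changed sign in any alternative run. Depth limits Bmp2, at 5 to 20 reads per library.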
